A study of Mus musculus with 9 samples.

Results

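Perforin, granule and receptor genes of cytotoxic lymphocytes were followed in B16 melanoma tissue of mice treated with PC61 or PBS. The list held 8 genes, chosen by symbol: Prf1, Gzmb, Cst7, Nkg7, Ctsw, Cd8b1, Klrd1 and Klrk1. Of these, 6 had at least 1 named probe with a detection p-value under 0.05 on 4 or more of the 9 arrays. They gave 7 of the 20190 detected probes, because Cd8b1 had 2. Gzmb, the granzyme B gene, and Klrk1, which encodes the NKG2D receptor, had no named probe and were not analysed here. The annotation used lists 14950 of the 45273 probes on the array, so a gene without a named probe may still have an unnamed one, which also holds for every count of listed genes that were measured. Each of the 6 was detected on at least 3 of 4 PC61 and 4 of 5 PBS arrays, so none entered through 1 group alone.

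Both groups were C57/Bl6 mice, 8 weeks old per the labels, and the tissue was B16 tumour environment at day 14 after inoculation. The 4 PC61 samples came from mice treated with an antibody against CD25, used to deplete regulatory T cells, and the 5 PBS samples from mice given the buffer. Neither the antibody's dose nor its timing is stated in the labels. Nothing in the labels says that replicates are separate mice, so the p-values cover only how far these samples spread, which may be technical. The tissue is a mixture, and fewer cells of a type cannot be told apart from less RNA per cell in it.

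Cytotoxic T cells and natural killer (NK) cells kill by releasing granules onto a target. Perforin opens the target's membrane and granzymes enter and start apoptosis, while cathepsins and their inhibitor cystatin F control the proteases inside the granule. CD8 holds the T cell on MHC class I, and CD94, the Klrd1 product, pairs with NKG2 proteins to read the non-classical MHC molecule Qa-1.

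Between 18572 and 20742 probes were detected on each array. PC61 replicate 4 stood apart from the others. Its melanocyte and melanoma marker mean, over 14 of 15 listed genes, stood at -4.36 log2 units relative to PBS. PC61 replicates 1 to 3 had -1.58 to -0.31 and the PBS arrays -0.33 to 0.39. The results on the cytotoxic genes are therefore given with and without PC61 replicate 4. Foxp3, the regulatory T cell factor, differed by -0.32 ± 0.18 (SE, log2, PC61 minus PBS, limma adjusted p = 0.231), and Il2ra, the CD25 gene, was not analysed here.

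Promoter sequences from RefSeq (GRCm38.p6) were matched by symbol for 3 of the 6 measured genes, Cst7, Nkg7 and Prf1. They are shown because Nkg7 and Cst7 each passed a test of agreement with Klrd1 across the arrays and Prf1 passed with no gene, as described further on. Each line gives 300 bases, from 250 before to 50 after the gene's start. Capitals mark the letters GGAAGT (ETS family), TGTGGT (RUNX family) and TCACAC (a T-box core) on either strand, none of which overlaps another here.
Nkg7 chr7:43436888-43437187, plus strand: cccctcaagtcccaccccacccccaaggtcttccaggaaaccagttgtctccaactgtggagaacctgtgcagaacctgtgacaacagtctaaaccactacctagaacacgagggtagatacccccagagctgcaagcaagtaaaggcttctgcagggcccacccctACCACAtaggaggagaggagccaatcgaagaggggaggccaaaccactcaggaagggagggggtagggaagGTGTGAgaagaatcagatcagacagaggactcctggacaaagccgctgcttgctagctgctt
Cst7 chr2:150570165-150570464, plus strand: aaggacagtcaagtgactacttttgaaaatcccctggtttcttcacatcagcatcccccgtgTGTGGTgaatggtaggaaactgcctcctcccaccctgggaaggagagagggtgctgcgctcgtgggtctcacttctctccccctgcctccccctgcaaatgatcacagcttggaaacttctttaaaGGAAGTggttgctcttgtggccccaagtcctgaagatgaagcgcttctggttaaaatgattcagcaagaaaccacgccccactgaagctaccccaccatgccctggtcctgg
Prf1 chr10:61297586-61297885, plus strand: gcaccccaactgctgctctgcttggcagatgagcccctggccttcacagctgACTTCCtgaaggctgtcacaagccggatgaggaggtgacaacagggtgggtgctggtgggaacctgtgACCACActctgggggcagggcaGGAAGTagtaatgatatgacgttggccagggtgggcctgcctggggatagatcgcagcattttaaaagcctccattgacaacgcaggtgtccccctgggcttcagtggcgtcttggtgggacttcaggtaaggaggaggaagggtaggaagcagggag
Prf1 held 2 GGAAGT matches and 1 TGTGGT match, Cst7 held 1 of each, and Nkg7 held 1 TGTGGT and 1 TCACAC match. Among all 32851 promoters of the table, 23.8% held GGAAGT, 16.8% held TGTGGT and 14.5% held TCACAC, so each match is a description of the window only.

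Over all 9 arrays, no cytotoxic probe was called different between PC61 and PBS tumours. Of the 7 probes, 0 passed a limma adjusted p under 0.05, where 20.0% of all detected probes did (10.7% higher and 9.28% lower in PC61). At an unadjusted limma p under 0.05 the count over all arrays was also 0 of 7, beside 35.9% of all probes. Without PC61 replicate 4 the unadjusted limma p of Cst7 was 0.0183 (adjusted p = 0.0846). In that setting 13.9% of all probes passed the adjusted threshold. An exact permutation test of each probe (two-sided, 126 ways to divide the arrays, smallest possible p = 0.00794) gave 1 of 7 under 0.05, unadjusted. For this test the share over all detected probes was not computed, so that count has no background beside it. The groups overlapped for each of the 7 probes, while 17.6% of all probes did not overlap. The median log2 difference was -0.18 over the 7 probes and -0.07 over all detected probes.

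**Figure D1:**
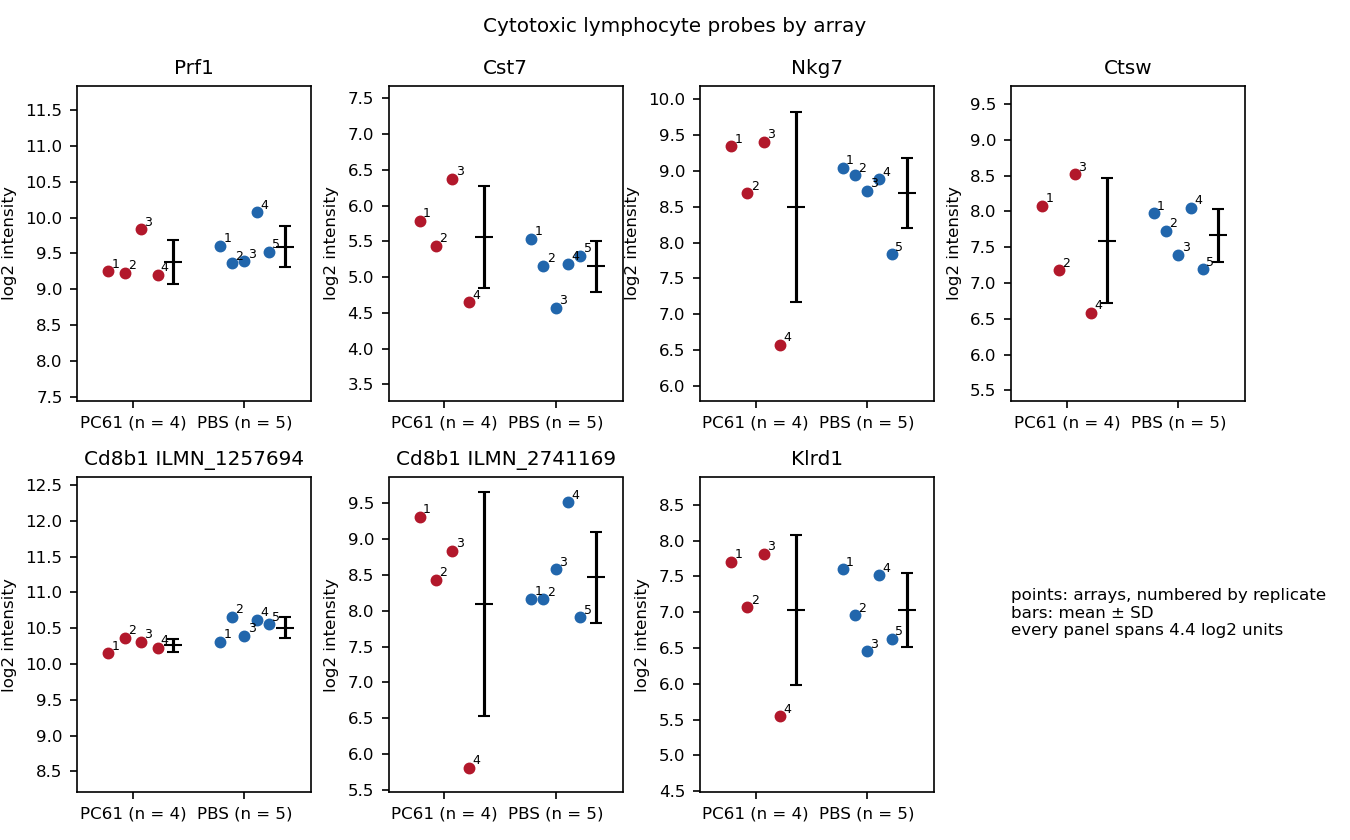
Log2 intensity (y axis, each panel spanning the same number of log2 units) of the 7 probes on the 4 PC61 and 5 PBS arrays. Points are arrays with their replicate number and bars are mean ± SD. PC61 replicate 4 lies far below the other arrays for Nkg7 (6.57), Klrd1 (5.55) and Cd8b1 probe ILMN_2741169 (5.81), but not for Prf1 or Cd8b1 probe ILMN_1257694.

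Among the granule effectors, Prf1, the perforin gene, had log2 intensities of 9.25, 9.22, 9.84 and 9.20 on PC61 replicates 1 to 4, against 9.61, 9.36, 9.39, 10.07 and 9.53 on PBS replicates 1 to 5. PC61 replicate 3 was high and the other 3 PC61 arrays lay below every PBS array. The means were 9.38 ± 0.31 in PC61 and 9.59 ± 0.29 in PBS (SD, n = 4 and 5). The log2 difference was -0.21 ± 0.21 (SE, limma adjusted p = 0.509), a ratio of 0.863 with a 95% interval from 0.627 to 1.19.

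Nkg7, a membrane protein of the cytotoxic granule, read 9.35, 8.69, 9.41 and 6.57 in PC61, against 9.05, 8.94, 8.72, 8.88 and 7.84 in PBS. PC61 replicates 1 and 3 were the highest of the 9 arrays and replicate 4 was the lowest. The difference was -0.18 ± 0.51 (SE, limma adjusted p = 0.8293), and 0.46 ± 0.29 (adjusted p = 0.289) without PC61 replicate 4. The same turn of sign was seen for Ctsw, which encodes the cathepsin W protease of CD8 T and NK cells.

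Ctsw had 8.08, 7.18, 8.52 and 6.58 in PC61, against 7.97, 7.73, 7.40, 8.05 and 7.19 in PBS. PC61 replicates 1 and 3 again lay above all PBS arrays, and replicates 2 and 4 below all of them. The difference was -0.08 ± 0.36 (SE, limma adjusted p = 0.900) and 0.26 ± 0.30 (adjusted p = 0.594) without PC61 replicate 4.

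Cst7 encodes cystatin F, the inhibitor of granule cathepsins, and was the 1 probe of the 7 not detected on every array. It was above background on 3 of 4 PC61 and 4 of 5 PBS arrays, failing on PC61 replicate 4 and PBS replicate 3. Its values were 5.78, 5.44, 6.37 and 4.65 in PC61, against 5.53, 5.16, 4.57, 5.19 and 5.30 in PBS. PC61 replicates 1 and 3 lay above all PBS arrays and replicate 2 above 4 of the 5. Cst7 had the largest positive difference of the 7 probes, 0.41 ± 0.32 (SE, limma adjusted p = 0.380). Leaving that array out gave 0.71 ± 0.26 (adjusted p = 0.0846), which did not pass.

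The receptor gene Klrd1 (CD94) read 7.71, 7.07, 7.82 and 5.55 in PC61, against 7.60, 6.96, 6.45, 7.51 and 6.63 in PBS. The means of 7.03 ± 1.05 in PC61 and 7.03 ± 0.52 in PBS (SD) were alike, while PC61 held both the highest pair of values and the lowest value. The interval of the ratio still ran from 0.521 to 1.93 (difference 0.00 ± 0.43, SE, limma adjusted p = 0.996). The difference without PC61 replicate 4 was 0.50 ± 0.30 (adjusted p = 0.266).

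The 2 probes of Cd8b1, the beta chain of the CD8 co-receptor, disagreed. Probe ILMN_1257694 had 10.15, 10.36, 10.31 and 10.23 in PC61, against 10.31, 10.66, 10.39, 10.62 and 10.56 in PBS. It had the smallest range of the 7 probes within each group, and PC61 replicate 4 was not apart on it. Its difference of -0.25 ± 0.16 (SE, limma adjusted p = 0.299) was the only one of the 7 under 0.05 in the exact two-sided permutation test (exact p = 0.0476, unadjusted). How many of all detected probes pass that test was not computed. Probe ILMN_2741169 had 9.31, 8.43, 8.84 and 5.81 in PC61, against 8.16, 8.16, 8.58, 9.52 and 7.91 in PBS. On PC61 replicate 4 it lay 2.66 below its PBS mean, while ILMN_1257694 lay 0.28 below its own. Its difference was -0.37 ± 0.60 (SE, limma adjusted p = 0.699) with a ratio interval from 0.310 to 1.93, and 0.39 ± 0.34 (adjusted p = 0.453) without that array. Which of the probes reads Cd8b1 alone was not tested.

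**Figure D2:**
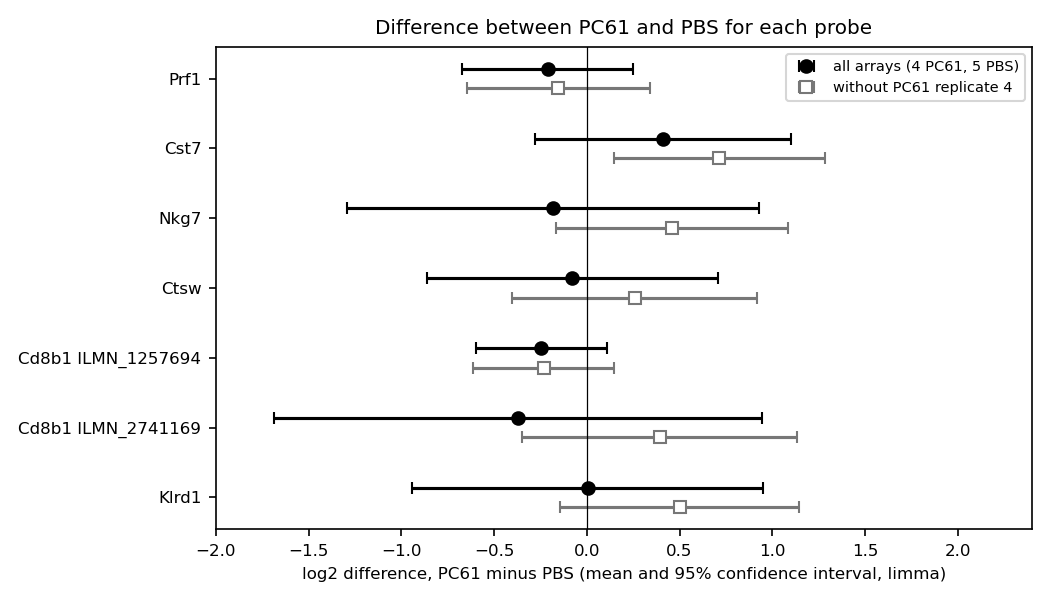
Log2 difference between PC61 and PBS (x axis) for each of the 7 probes, with 95% confidence intervals, over all arrays (circles) and without PC61 replicate 4 (squares). Without that array 5 probes lie above 0, against 2 with it, and 0 pass the adjusted threshold either way.

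The intervals limit what could be seen. A 2-fold lower level in PC61 lay inside the 95% interval for Nkg7 and Cd8b1 probe ILMN_2741169, and a 2-fold higher level for Cst7. Leaving out PC61 replicate 4 moved the median of the 7 probes to 0.39, with 0 called, while the median of all probes was -0.07 and 13.9% were called. The SD was larger in PC61 than in PBS for 6 of the 7 probes, and for 62.3% of all detected probes. Without PC61 replicate 4 this held for 3 of the 7, and the share of all probes in that setting was not computed.

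The arrays ordered most of these genes alike. PC61 replicate 4 was lowest of the 9 arrays for 5 of the 7 probes and below the PBS mean for all 7, by 1.22 log2 units on average. PC61 replicate 3 was highest for 4 probes and above the PBS mean for 6. PBS replicate 4 was above the PBS mean for all 7, by 0.39 on average, and PBS replicate 5 was below it for 5.

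**Figure D3:**
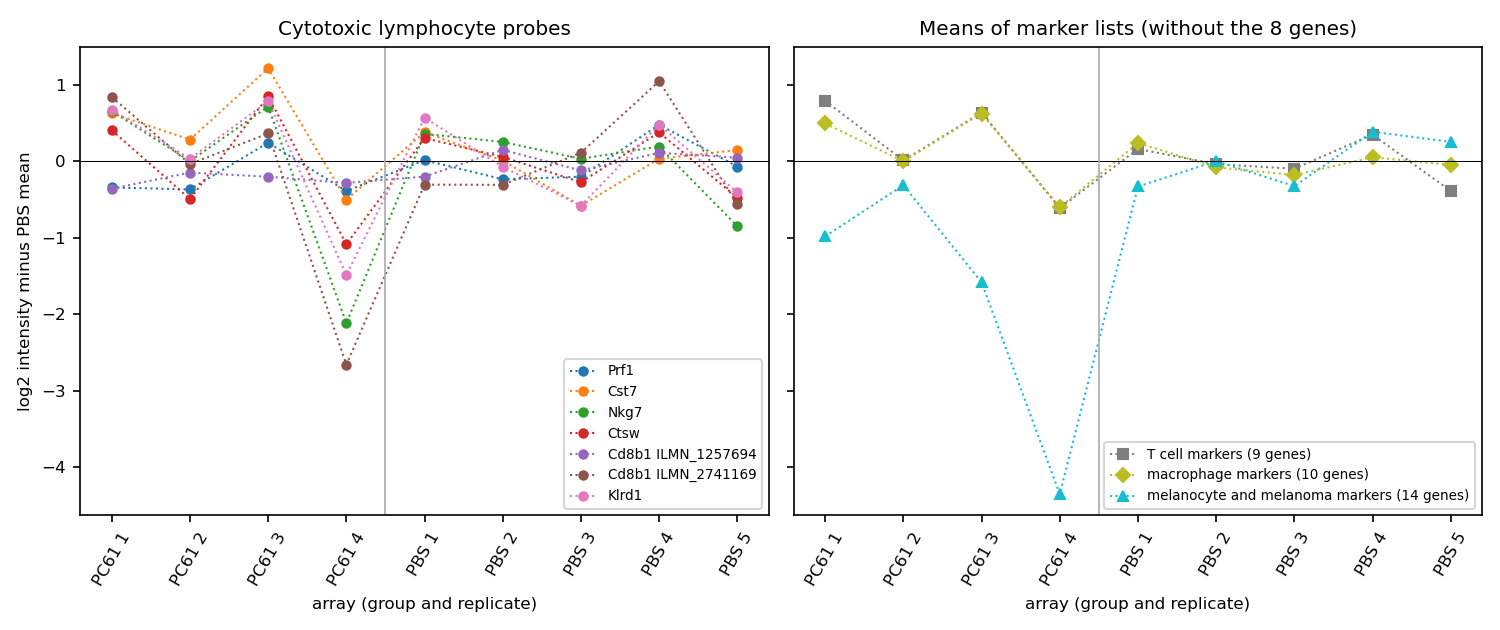
Log2 intensity minus the PBS mean (y axis) on each array (x axis) for the 7 probes (left) and for the means of T cell, macrophage and melanocyte marker lists (right). Of the 7 probes 5 are high on PC61 replicates 1 and 3 and low on PC61 replicate 4, as the T cell and macrophage means are, while the melanocyte mean reaches -4.36 on PC61 replicate 4.

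Agreement was measured with Pearson's r and Spearman's rho over the 9 arrays for the 15 pairs of the 6 genes, using 1 probe per gene (for Cd8b1, ILMN_1257694) and an exact two-sided permutation test over pairings. The same 4 pairs passed a Benjamini-Hochberg adjusted p of 0.05 by both measures, all among Klrd1, Ctsw, Nkg7 and Cst7. The other 2 pairs of these 4 genes, Cst7 with Nkg7 (r = 0.63) and with Ctsw (r = 0.75), did not pass (adjusted p = 0.165 and 0.0574, exact permutation). Ctsw and Klrd1 had r = 0.92 (exact p = 0.000496, adjusted p = 0.00372) and rho = 0.87 (exact p = 0.00451, adjusted p = 0.0169). Klrd1 and Nkg7 had r = 0.91 (exact p = 0.00108, adjusted p = 0.00542) and rho = 0.88 (exact p = 0.00308, adjusted p = 0.0154). Nkg7 and Ctsw had r = 0.88 (exact p = 9.92e-05, adjusted p = 0.00149) and rho = 0.93 (exact p = 0.00075, adjusted p = 0.0112). Cst7 and Klrd1 had r = 0.82 (exact p = 0.00732, adjusted p = 0.0274) and rho = 0.90 (exact p = 0.00203, adjusted p = 0.0152).

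These pairs kept a positive r when arrays were removed. Without the 2 arrays farthest from the median of the first gene, r was 0.83 for Ctsw and Klrd1, 0.80 for Nkg7 and Klrd1, 0.88 for Nkg7 and Ctsw and 0.86 for Cst7 and Klrd1. Without PC61 replicate 4 the values were 0.86, 0.77, 0.82 and 0.80, and over deviations from each group's mean 0.93, 0.91, 0.88 and 0.89. Each group holds under 6 arrays, so no r was computed within a group.

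No pair with Prf1 or Cd8b1 probe ILMN_1257694 passed. Prf1 had r from 0.35 with Cst7 to 0.63 with Ctsw (exact p = 0.0676, adjusted p = 0.165). Cd8b1 probe ILMN_1257694 had r = -0.01 with Klrd1, 0.03 with Ctsw, 0.06 with Nkg7 and -0.24 with Cst7. With the other Cd8b1 probe its r was 0.20 (rho = -0.07, exact p = 0.636 and 0.880). Probe ILMN_2741169 passed with 3 genes by r, at r = 0.89 with Nkg7, 0.84 with Klrd1 and 0.78 with Ctsw (exact p = 0.00567, 0.00814 and 0.0116, and adjusted p = 0.0285, 0.0285 and 0.0349 over the 21 pairs of all 7 probes). By rho these 3 pairs did not pass (0.62, 0.67 and 0.75, adjusted p = 0.180, 0.175 and 0.107). Their r was 0.32, 0.55 and 0.61 without the 2 farthest arrays and 0.57, 0.56 and 0.57 without PC61 replicate 4. With Cst7 (r = 0.49) and Prf1 (r = 0.50) the probe did not pass (exact p = 0.182 and 0.170, adjusted p = 0.294 for both), and without PC61 replicate 4 these were 0.20 and 0.40.

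**Figure D4:**
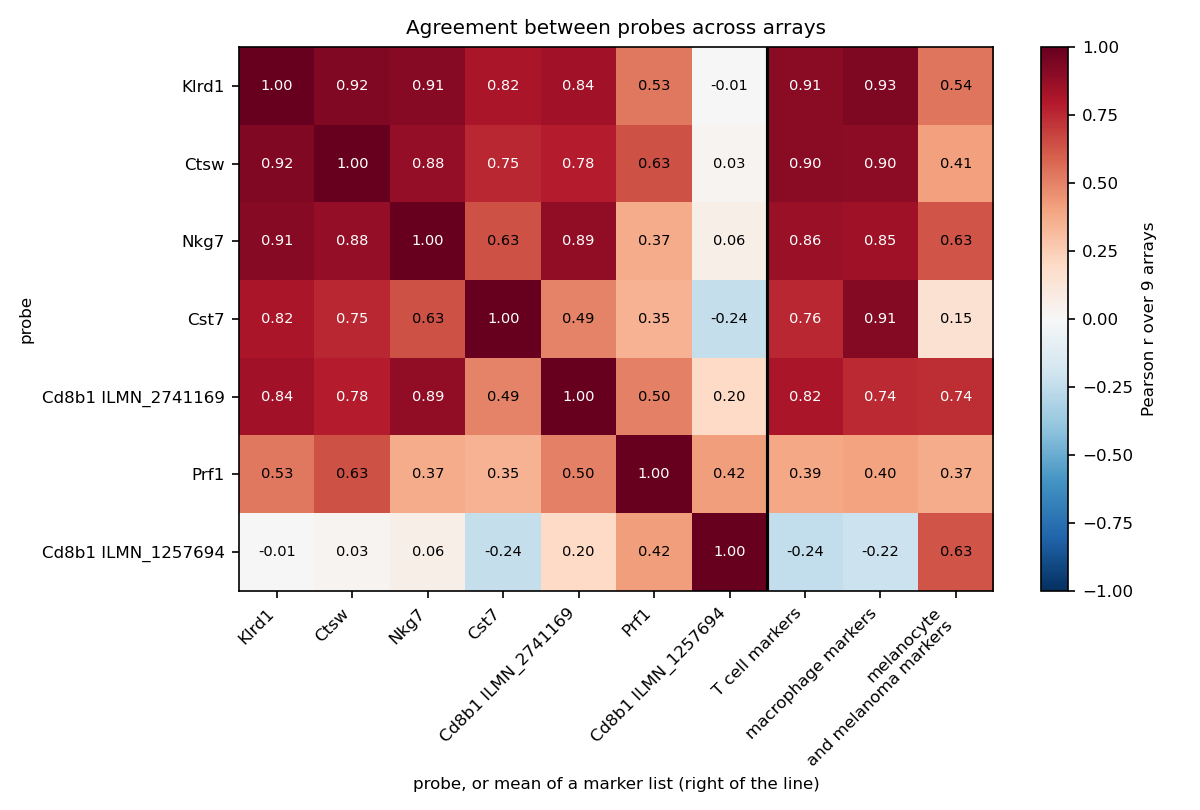
Pearson's r over the 9 arrays between the 7 probes (left of the line) and between each probe and the mean of 3 marker lists (right of the line). Klrd1, Ctsw, Nkg7 and Cst7 have r from 0.63 to 0.92 with each other, and the row of Cd8b1 probe ILMN_1257694, apart from its own cell, stays between -0.24 and 0.63.

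The same genes were set against the mean of 9 T cell markers, 10 macrophage markers and 14 melanocyte and melanoma markers, which makes 21 relations, with the 8 cytotoxic genes left out of the lists. With the T cell mean 5 of 7 probes passed by r (from 0.76 to 0.91) and the same number by rho. Klrd1 had r = 0.91 (exact p = 0.000295, adjusted p = 0.0031) and rho = 0.95 (exact p = 0.000353, adjusted p = 0.0037), and r = 0.92 without the 2 farthest arrays. Ctsw had r = 0.90 (exact p = 0.000931, adjusted p = 0.00483) and rho = 0.88 (exact p = 0.00308, adjusted p = 0.0129), and r = 0.91 without the 2 farthest. Cst7 had r = 0.76 (exact p = 0.0176, adjusted p = 0.0411), rho = 0.77 (exact p = 0.0214, adjusted p = 0.0449) and r = 0.50 without the 2 farthest. For this list the 2 farthest arrays were PC61 replicates 1 and 3, so PC61 replicate 4 stayed in. Without PC61 replicate 4, r was 0.88 for Klrd1, 0.87 for Nkg7 and 0.84 for Ctsw. It was 0.78 for Cd8b1 probe ILMN_2741169 and 0.68 for Cst7.

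With the mean of the macrophage markers, none of which is a cytotoxic gene, 5 of 7 probes passed by r (from 0.74 to 0.93) and 4 by rho. Klrd1 had r = 0.93 (exact p = 8.27e-06, adjusted p = 0.000174) and rho = 0.98 (exact p = 4.96e-05, adjusted p = 0.00104), and r = 0.86 without the 2 farthest arrays. Cst7 had r = 0.91 (exact p = 0.00144, adjusted p = 0.00505) and rho = 0.93 (exact p = 0.00075, adjusted p = 0.00525), and r = 0.84 without the 2 farthest. Here the 2 farthest arrays were PC61 replicates 3 and 4. The other 3 that passed by r were lower without the 2 farthest arrays, at 0.61 for Nkg7, 0.68 for Ctsw and 0.45 for Cd8b1 probe ILMN_2741169, the last of which was 0.43 without PC61 replicate 4 and did not pass by rho. The part of the overall immune cell content of a sample in the agreement between the cytotoxic genes was not tested.

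Cd8b1 probe ILMN_1257694 had r = -0.24 with the T cell mean and -0.22 with the macrophage mean. With the melanocyte mean it had r = 0.63 (exact p = 0.0499, adjusted p = 0.0953) and rho = 0.88 (exact p = 0.00308, adjusted p = 0.0129), the 1 relation with that list that passed by rho, and none passed by r. Without the 2 farthest arrays, PC61 replicates 3 and 4, its r was 0.92, and over deviations from the group means it was 0.30. The genes most like this probe were Ywhab, a 14-3-3 adaptor protein (r = 0.97), and Cd151, a tetraspanin (r = 0.97). Other probes turned sign with the melanocyte mean when PC61 replicate 4 was left out. Their r went from 0.63 to -0.70 for Nkg7, 0.54 to -0.55 for Klrd1 and 0.41 to -0.60 for Ctsw. It went from 0.15 to -0.74 for Cst7 and from 0.74 to -0.25 for Cd8b1 probe ILMN_2741169. Prf1 kept its sign, at 0.37 and 0.09.

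The 10 genes most like the mean of the 6 members over the 9 arrays were Sla, a Src-like adaptor of lymphocytes (r = 0.97), Nrros (0.97), Tspan32 (0.96), Klhl6, a B cell gene (0.96), Gbp2b (0.95), Bcl2a1c (0.95), Vav1, the exchange factor below antigen receptors (0.95), Lpxn (0.94), Samhd1 (0.94) and Ctss, the cathepsin of antigen-presenting cells (0.94). None of the 10 was called between PC61 and PBS, with limma adjusted p from 0.371 to 0.951. Klrd1 was most like Ikzf1, the lymphoid factor Ikaros (0.96), and Vav1 (0.95), and Nkg7 most like Pet100 (0.99) and Cd40 (0.97). Cst7 was most like Tlr7 (0.98) and H2-D1 (0.91), Ctsw most like Lpxn (0.96) and Sla (0.96), Prf1 most like Zswim8 (0.96) and Lhfpl2 (0.93), and Cd8b1 probe ILMN_2741169 most like the T cell adaptor Sh2d2a (0.96) and Rgs16 (0.95). These have the highest r among 10096 named genes and are given as a description, with no test.

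Lists of the wider cytotoxic pathway were read against all named genes, of which 24.7% were called (14.5% higher and 10.2% lower in PC61), with 10.4% higher and 6.64% lower without PC61 replicate 4. Of 16 listed granule effectors 7 were measured, Prf1, Cst7, Nkg7 and Ctsw among them, and 0 were called. The median difference was 0.04 over the 6 detected in both groups, beside -0.05 over all named genes, and 0.16 with Gzmm, which was detected in PC61 alone. At an unadjusted limma p under 0.05 there was 1, Gzmm. Gzmm, granzyme M, had 5.42, 5.18, 5.28 and 5.25 in PC61, against 4.71 to 4.95 in PBS, with no overlap. It was detected on 4 of 4 PC61 and 0 of 5 PBS arrays, so it entered the test only through PC61. Its difference was 0.42 ± 0.16 (SE, limma adjusted p = 0.0776). Gzmk, detected on 3 of 4 PC61 and 2 of 5 PBS arrays, was at 0.26 ± 0.27 (adjusted p = 0.524) and Srgn, the granule proteoglycan serglycin, at 0.16 ± 0.34 (adjusted p = 0.767).

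The machinery that loads and releases granules had 13 of 14 genes measured, of which 1 rose and 2 fell (median difference -0.10). Ctsh, cathepsin H, rose by 0.93 ± 0.26 (SE, limma adjusted p = 0.0284). Stx11, the syntaxin of granule fusion, fell by 0.75 on the log2 scale (adjusted p = 0.0294). Rab27a, the GTPase that brings lytic granules and, in melanocytes, melanosomes to the membrane, fell by 1.82 (adjusted p = 0.0339). Rab27a read 10.27, 11.21, 10.05 and 7.75 in PC61, against 11.23 to 11.92 in PBS, so the groups did not overlap, and PC61 replicate 4 was again lowest. Melanocyte markers moved with it, 4 of 14 called and all lower (6 of 14 without PC61 replicate 4), with a list mean from -4.36 to -0.31 in PC61 and from -0.33 to 0.39 in PBS, and their part in the Rab27a difference was not tested. Rab27a without PC61 replicate 4 was at -1.14 (adjusted p = 0.0249), and Ctsh and Stx11 lost their calls at 0.89 (adjusted p = 0.0515) and -0.61 (adjusted p = 0.0613). Ctsc, which activates granzymes, was at 0.43 ± 0.23 (adjusted p = 0.198), Unc13d (Munc13-4) at 0.46 ± 0.34 (adjusted p = 0.365), Vamp7 at -0.63 ± 0.22 (adjusted p = 0.0684) and Ctsl, cathepsin L, at 0.67 ± 0.34 (adjusted p = 0.183). The Ctsl probe was detected on 3 of 4 PC61 and 1 of 5 PBS arrays.

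Surface receptors had 10 of 26 genes measured, Cd8b1 and Klrd1 included, and 0 called, with a median of 0.01 (0 of 10 also at an unadjusted limma p under 0.05). Among the NK receptors Klra4 was at -0.37 ± 0.39 (SE, limma adjusted p = 0.542), Klrb1b at 0.21 ± 0.25 and Klre1 at 0.02 ± 0.33. Klrb1b was detected on 3 of 4 PC61 and 1 of 5 PBS arrays, and Klre1 on 3 of 4 PC61 and 2 of 5 PBS arrays. The Klra genes are a family of related sequences, and a probe may read more than 1 of them. Of 12 NK markers 4 were measured, and Ncr1, Klrb1c and Gzma, like Cd8a, were not analysed here.

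Receptor adaptors and proximal signalling had 8 of 16 measured and 0 called, with a median of 0.14 (1 of 8, Plcg2, at an unadjusted limma p under 0.05). Hcst, the DAP10 adaptor through which NKG2D signals, read 7.42, 7.67, 8.10 and 5.17 in PC61, against 6.02 to 7.11 in PBS. PC61 replicates 1 to 3 lay above every PBS array and replicate 4 below all of them. The difference was 0.42 ± 0.50 (SE, limma adjusted p = 0.585), and it was called without PC61 replicate 4 (1.06, adjusted p = 0.0311). Plcg2 was at 0.55 ± 0.24 (adjusted p = 0.116) and Sh2d2a at -0.39 ± 0.57 (adjusted p = 0.658). H2-T23, the Qa-1 gene whose product CD94 and NKG2 read, was the 1 of 10 listed ligands measured, at 0.33 ± 0.18 (adjusted p = 0.223).

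Of the death ligands, their receptors and related genes 6 of 14 were measured and 1 fell, with a median difference of 0.25. Bid, a granzyme B substrate that passes death signals to mitochondria, was lower by -1.01 ± 0.31 (SE, limma adjusted p = 0.0431), with 8.98, 9.10, 8.54 and 7.35 in PC61, against 9.24 to 9.65 in PBS. Leaving out PC61 replicate 4 gave -0.63 (adjusted p = 0.0514). The melanocyte marker mean put PC61 replicates 1 to 4 in the same order as Bid (-0.98, -0.31, -1.58 and -4.36). The part of melanoma content in the Bid difference was not tested. Casp8 was at -0.53 ± 0.19 (adjusted p = 0.0703), the death receptor gene Fas at 0.48 ± 0.26 (adjusted p = 0.208) and Tnfrsf10b, a TRAIL receptor gene, at 0.72 ± 0.43 (adjusted p = 0.252).

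Differentiation factors and cytokine inputs had 9 of 21 genes measured and 1 called. Bhlhe40, a transcription factor of activated T cells that other cells also express, fell by 0.94 on the log2 scale (limma adjusted p = 0.0238), and was at -0.79 (adjusted p = 0.0483) without PC61 replicate 4. Tbx21 (T-bet), the factor of cytotoxic differentiation, was at 0.16 ± 0.26 (adjusted p = 0.705), and it was detected on 3 of 4 PC61 and 3 of 5 PBS arrays. Il12rb1 was at -0.63 ± 0.22 (adjusted p = 0.0654), Id2 at -0.59 ± 0.21 (adjusted p = 0.0689) and Il15ra at 0.47 ± 0.29 (adjusted p = 0.274).

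Effector cytokines and the chemokines around them had 9 of 13 measured and 0 called, with a median of -0.61 (1 of 9, Cxcl10, at an unadjusted limma p under 0.05). Ifng was at 0.05 ± 0.33 (SE, limma adjusted p = 0.926), detected on 3 of 4 PC61 and 2 of 5 PBS arrays. Cxcl9, the chemokine that draws CXCR3-bearing T cells, had 11.49, 11.46, 11.18 and 5.67 in PC61, against 11.26 to 11.86 in PBS. PC61 replicate 4 was far below the rest, and the difference of -1.60 ± 0.98 (adjusted p = 0.266) was -0.17 (adjusted p = 0.594) without it. Cxcl10 had 9.77, 10.35, 9.25 and 5.22 in PC61, against 9.998 to 10.94 in PBS (-1.82 ± 0.82, adjusted p = 0.134, and -0.67, adjusted p = 0.141, without that array). Cxcr3, the receptor of both, was at -0.70 ± 0.36 (adjusted p = 0.186). The median of the 9 genes was 0.03 once PC61 replicate 4 was left out.

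Of the T cell receptor complex, Cd3e read 8.57, 7.65, 8.05 and 6.84 in PC61, against 7.12 to 8.03 in PBS, and Cd3d read 8.21, 7.31, 8.05 and 5.17, against 6.93 to 8.21 (differences 0.23 ± 0.32 and -0.46 ± 0.54, SE, limma adjusted p = 0.649 and 0.580). Of 9 measured T cell markers 2 rose, Thy1 by 0.78 ± 0.21 (adjusted p = 0.0271) and Bcl11b by 0.95 ± 0.31 (adjusted p = 0.0497). Without PC61 replicate 4 Thy1 kept its call (0.82, adjusted p = 0.0355) and Bcl11b lost it (0.81, adjusted p = 0.105). Both are expressed outside T cells too, Thy1 in fibroblasts and Bcl11b in keratinocytes. Keratinocyte markers were higher in the same samples, with 8 of 10 called (3 of 10 without PC61 replicate 4) and a list mean from 0.80 to 2.76 above the PBS mean in PC61, against -1.49 to 0.92 in PBS. The part of keratinocytes in the Bcl11b difference and of fibroblasts in the Thy1 difference was not tested.

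Markers of other tissue also moved. Skeletal muscle markers rose for 14 of 14 measured genes (median 2.06) and mast cell markers for 5 of 6 (median 1.54, and 3 of 6 without PC61 replicate 4), while macrophage markers had 0 of 10 called by limma (median 0.22, and 1 of 10 without that array) and B and plasma cell markers 1 of 3. The called B and plasma cell gene was Sdc1, at 1.82 (limma adjusted p = 0.0155). Mzb1 (1.11, adjusted p = 0.127) and Irf4 (0.22, adjusted p = 0.482) of that list were not called. Sdc1 read 9.33, 9.15, 10.23 and 10.61 in PC61, highest on replicate 4, as the keratinocyte list mean was (2.76). The part of keratinocytes in the Sdc1 difference was not tested. The macrophage list mean ran from -0.60 to 0.63 in PC61 and from -0.18 to 0.24 in PBS, relative to the PBS mean, and the T cell list mean from -0.61 to 0.79 in PC61 and from -0.38 to 0.35 in PBS. The part of tissue composition in the values of the cytotoxic genes was not tested.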

How the data were processed

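Illumina BeadChip arrays of 9 tumour samples were used. The authors' deposited raw table held an intensity and, per the file headers, a detection p-value for 45273 probes. A detection value outside 0 to 1 left out 3 probes. The authors' second deposited table held quantile-normalized intensities of 17382 probes with a ratio of PC61 to PBS, a test statistic as a score, p-values and Benjamini-Hochberg values, per the file headers. Quantile normalization of the raw table gave its intensities to within 0.109%. The value table of the series repeated them with a largest difference of 0. The scanner, the background handling and the authors' test are not stated in the labels or headers.

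From the raw table, neqc of limma 3.58.1 (R 4.3.3) corrected the background by normexp from the detection p-values, with an offset of 16, followed by quantile normalization and log2. The offset shrinks the fold changes of dim probes, and quantile normalization hides a shift shared by most genes. A probe was kept if its detection p was below 0.05 on 4 or more arrays. Names came from the platform annotation, with symbols updated through gene identifiers to RefSeq. Of the kept probes 14906 had 1 symbol, and 5284 had none or several and are unnamed. For gene lists and pairs, each gene was read from its kept probe of highest mean intensity. Groups were compared with lmFit and eBayes over all kept probes, two-sided, with Benjamini-Hochberg adjustment and a threshold of 0.05. The number of arrays limits the precision. The procedure was run on simulated data with independent noise for each probe. That setting holds no shift shared by many genes on an array.

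The members and gene lists were chosen with earlier results of these data known. Named genes were all members. From the lists of the cytotoxic pathway, T cell markers and B and plasma cell markers they were up to 6 called genes. From each list of the cytotoxic pathway they were also the 3 uncalled genes with the smallest p. Called genes of the melanocyte, keratinocyte, skeletal muscle and mast cell lists were counted but not named. Several others were named whatever their value, and some after their values were seen (Gzmk, Srgn, Unc13d, Klre1, Foxp3, Mzb1 and Irf4). Same-numbered replicates were not shown to be pairs: correlations of their deviations ran from -0.29 to 0.04. Alternatives were other background, normalization, detection, weighting and test settings, a replicate block and leaving out each array.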

Additional observations from a re-analysis of the deposited data

Results flagged for a closer look

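In each group, the highest or lowest array was checked for a wide gap to its neighbour (Dixon's limit), over 14 combinations of probe and group. Chance passes about 5% of such checks, and 2 passed here. Prf1 on PC61 replicate 3, at 9.84 log2 units, lay above the other 3 PC61 arrays, which read 9.25, 9.22 and 9.20, with a gap of 0.926 of the group's range. Nkg7 on PBS replicate 5, at 7.84, lay below the other 4 PBS arrays, whose lowest was 8.72, with a gap of 0.731 of the range. The low values of PC61 replicate 4 did not pass this limit.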

How the results depend on the processing

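The count of called cytotoxic probes stayed at 0 under every setting run. Cst7 was not tested with detection p under 0.01 on all arrays, nor Cd8b1 probe ILMN_2741169 with 1 probe per gene. Over these settings the lowest limma adjusted p of any of the 7 probes was 0.0720, for Cst7. The exact permutation test put Cd8b1 probe ILMN_1257694 past 0.05 at the same difference of -0.25 (exact p = 0.0476, unadjusted, with no share over all probes computed). The sign turned for Ctsw with cyclic loess (0.034) and array weights (0.30), and with array weights also for Nkg7 (0.50) and Cd8b1 probe ILMN_2741169 (0.64). With the replicate block Klrd1 turned to -0.10, and of all probes limma called 0 (5357 at an unadjusted p under 0.05), against 4041 without it. PBS replicate 5 shares its number with no PC61 array and adds nothing to that fit, and the numbers are not shown to be pairs.

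Leaving out 1 array at a time gave differences from -0.36 to -0.09 for Prf1, 0.14 to 0.71 for Cst7, -0.48 to 0.46 for Nkg7, -0.39 to 0.26 for Ctsw, -0.30 to -0.21 for Cd8b1 probe ILMN_1257694, -0.78 to 0.39 for Cd8b1 probe ILMN_2741169 and -0.26 to 0.50 for Klrd1. The positive ends of Nkg7, Ctsw, Cd8b1 probe ILMN_2741169 and Klrd1 and the upper end of Cst7 came without PC61 replicate 4. The median r between genes ran from 0.41 without PC61 replicate 4 to 0.63. The count over all probes ran from 972 without PC61 replicate 3 to 5757 without PC61 replicate 2, and it was 1728, 1990 and 2393 when PBS replicates 5, 4 and 2 were left out in turn and 2513 when PC61 replicate 1 was. It was 1796 with no detection filter, 6279 with array weights and 2679 with 1 probe per gene, where fewer probes are tested. Without PC61 replicate 4, a setting added after the data were seen, called genes numbered 1 for receptor adaptors, 0 for death ligands, 1 for T cell markers, 3 for keratinocyte markers, 1 for macrophage markers and 3 for mast cell markers. The causes were not tested. Cst7, Gzmm, Gzmk, Ctsl, Klrb1b, Klre1, Tbx21 and Ifng were not detected on every array and lie near background, which limits their folds. Il12rb1, Klra4, Cxcr3, Sh2d2a and Unc13d were each detected on 8 of the 9 arrays, which limits theirs too.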

Other observations

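In the authors' deposited table the ratio of PC61 to PBS and the test statistic pointed in opposite directions for Nkg7, with a ratio of 1.07 and a statistic of -0.34, and for Ctsw, with 1.05 and -0.20. The ratio equals that of the arithmetic means of the authors' deposited intensities (Nkg7 464.8 in PC61 and 434.4 in PBS). The means of their log2 values were lower in PC61, at 8.53 in PC61 and 8.71 in PBS for Nkg7 and 7.63 in PC61 and 7.71 in PBS for Ctsw, so the directions differ with the scale. In the authors' deposited table Klrd1 had a ratio of 1.11 and Cst7 one of 1.38, with Benjamini-Hochberg values of 0.984 and 0.394. Prf1 had a ratio of 0.866 in the authors' deposited table, and the Cd8b1 probes ILMN_1257694 and ILMN_2741169 had 0.842 and 0.968. The authors' deposited table placed none of these 7 probes under a Benjamini-Hochberg value of 0.05.

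Without PC61 replicate 4, Coro1a, an actin regulator of leukocytes, was called higher in PC61 (0.72, limma adjusted p = 0.0430), and so was the complement gene C1qb of macrophages (0.66, adjusted p = 0.0414). With all arrays they were at 0.27 (adjusted p = 0.635) and 0.15 (adjusted p = 0.823). Both read lowest of all arrays on PC61 replicate 4, at 9.53 and 10.36, so leaving it out raised their differences. In that setting 10.4% of all named genes were called higher. Both were named after their values were seen.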
